A study of Homo sapiens with 6 samples.

Results

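The 48 h array of a coculture time course was set against its 0 h array, gene by gene, to describe which Caco-2 transcripts were back at their starting level after 48 h and which were not. Caco-2 is a human colon carcinoma cell line that forms a polarised, enterocyte-like layer once confluent, and THP-1, from a monocytic leukaemia, turns macrophage-like under phorbol myristate acetate (PMA). Caco-2 cells had grown for 14 days on a porous membrane, THP-1 cells had been exposed to PMA over 4 days in the wells of separate plates, and the membrane with its Caco-2 layer was then set above the THP-1 cells. Caco-2 RNA was hybridised at 0, 1, 3, 6, 24 and 48 h, on 1 array per time. The comparison uses 2 of the 6 arrays directly, and the other arrays only to say what a gene had done in between. The 0 h group is Caco-2 at the start of coculture and the 48 h group is Caco-2 after 48 h of it, from the same line and the same RNA protocol. No genetic change beyond the line itself is named for either group, and the only agent named is the PMA given to the THP-1 cells, which every array shares. Caco-2 cells kept alone for 48 h were not analysed here, so coculture and time in culture cannot be told apart.

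Values are MAS5 signals, a linear fluorescence intensity per probe set. Signals under 16.2, the median of all values, were set to that floor, and each gene was read by its brightest probe set. A gene was measured if either array lay above the floor, which held for 13048 of 19775 genes. It was called higher or lower at 48 h if the arrays differed at least 2-fold, and the fold is a lower bound where the dimmer array was at the floor. It was called back if it had differed at least 2-fold from 0 h at 1, 3, 6 or 24 h and was within 1.5-fold at 48 h. With n = 1 at each time no test was possible and no SD exists. The only spread the arrays hold is between different probe sets of a gene. From the differences between their 48 h to 0 h log2 ratios, the robust SD of a single probe set was 0.47. It is the robust SD of the differences divided by the square root of 2, so the differences themselves were wider. The source of this spread was not tested, and the spread does not stand for that between cultures. RNA per cell and number of cells cannot be told apart in bulk RNA that was scaled to a common total.

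A differentiated Caco-2 layer makes the digestive enzymes and transporters of small intestine, and also many proteins usually made by liver, such as fibrinogen, transferrin and apolipoproteins, under factors like HNF1 and HNF4. Cytokines from macrophages, among them tumour necrosis factor and interleukin 1, are known to drive NF-kB in epithelium. NF-kB switches on chemokine genes within the hour and also its own inhibitors, NFKBIA and TNFAIP3, so that the response is self-limiting. Proteins for secretion fold in the endoplasmic reticulum, and a load beyond its capacity switches on the unfolded protein response through ERN1 (IRE1), ATF6 and PERK.

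The 250 bases before the start of 6 genes show letters of the elements that carry such responses. They were picked because they hold a match, after the results were known. By their brightest probe sets, CXCL2 and TNFAIP3 stand for genes that were back at 48 h and FGA and FGB (fibrinogen alpha and beta chains) for genes that were lower. ERO1B (an oxidase of the endoplasmic reticulum) and HSPA6 (an inducible heat shock protein) stand for genes that were higher. For TNFAIP3, FGA and HSPA6 another probe set did not share the call, as given below. Sequences are from RefSeq on GRCh38.p14, read 5′ to 3′ on the strand of the gene, with matches on either strand in capitals. The capitals are NF-kB letters in the first pair, HNF1 letters in the second, and the ER stress and heat shock elements in the last. CXCL2 lies on the minus strand at chr4:74099196-74099445, TNFAIP3 on the plus strand at chr6:137867009-137867258, FGA on the minus strand at chr4:154590743-154590992, FGB on the plus strand at chr4:154562730-154562979, ERO1B on the minus strand at chr1:236281959-236282208 and HSPA6 on the plus strand at chr1:161524290-161524539.
CXCL2: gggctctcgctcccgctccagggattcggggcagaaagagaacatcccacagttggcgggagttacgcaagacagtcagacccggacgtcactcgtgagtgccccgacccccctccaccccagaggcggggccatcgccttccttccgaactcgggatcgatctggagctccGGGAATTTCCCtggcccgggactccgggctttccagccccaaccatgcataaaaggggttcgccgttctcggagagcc
TNFAIP3: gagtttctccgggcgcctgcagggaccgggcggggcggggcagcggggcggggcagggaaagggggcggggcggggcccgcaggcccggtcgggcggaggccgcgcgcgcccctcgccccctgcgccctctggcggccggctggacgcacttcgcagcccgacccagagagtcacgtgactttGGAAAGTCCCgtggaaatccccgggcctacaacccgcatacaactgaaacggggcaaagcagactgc
FGA: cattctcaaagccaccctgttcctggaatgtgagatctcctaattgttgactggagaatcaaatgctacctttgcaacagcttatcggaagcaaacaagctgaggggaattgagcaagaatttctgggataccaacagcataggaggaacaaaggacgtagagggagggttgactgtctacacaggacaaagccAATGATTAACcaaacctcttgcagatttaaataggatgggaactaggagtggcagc
FGB: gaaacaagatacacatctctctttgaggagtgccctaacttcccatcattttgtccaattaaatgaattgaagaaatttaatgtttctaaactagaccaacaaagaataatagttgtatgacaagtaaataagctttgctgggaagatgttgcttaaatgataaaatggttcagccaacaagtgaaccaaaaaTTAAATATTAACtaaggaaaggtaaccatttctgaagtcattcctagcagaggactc
ERO1B: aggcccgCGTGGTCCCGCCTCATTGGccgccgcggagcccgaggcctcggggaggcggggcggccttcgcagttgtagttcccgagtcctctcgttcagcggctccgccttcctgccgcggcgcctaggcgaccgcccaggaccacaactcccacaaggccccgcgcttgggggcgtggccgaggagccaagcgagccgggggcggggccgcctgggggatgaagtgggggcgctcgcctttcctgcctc
HSPA6: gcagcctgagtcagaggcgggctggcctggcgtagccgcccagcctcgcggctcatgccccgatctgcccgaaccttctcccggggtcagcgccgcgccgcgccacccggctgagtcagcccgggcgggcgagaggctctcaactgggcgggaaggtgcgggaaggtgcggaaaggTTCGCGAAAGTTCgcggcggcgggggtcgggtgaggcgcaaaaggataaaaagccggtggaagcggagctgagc

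In all, 13 patterns were searched on both strands of these 250-base windows, over 27305 promoters and over the promoters of the gene lists they are known for. The NF-kB letters GGGANNTTCC stood in 1.42% of all promoters, in 4 of 8 chemokine promoters (CXCL1, CXCL2, CXCL3 and CXCL10) and in 5 of 18 on the NF-kB list (NFKBIA, NFKBIZ, TNFAIP3, NFKB1 and REL). The letters GGGANTTCCC, which differ from these in spacing and are not a stricter form of them, stood in 0.377% of all promoters. They stood in CXCL10 and in none of the NF-kB list. For HNF1, GTTAATNATT stood in 0.271% of all promoters, in FGA and F13B of 14 coagulation genes and in AFP of 18 serum proteins. GTTAATNNTTAA stood in 0.110%, in FGB and in APOH, and GTTAATNATTAAC in 1 promoter and in none of these lists. The ER stress element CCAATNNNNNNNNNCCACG stood in 0.0806% of all promoters and in XBP1, HSP90B1, CRELD2 and ERO1B of 29 on the unfolded protein list. ATTGGNCCACG stood in 0.0513%, in HERPUD1 and SDF2L1, TGATGCAA in 0.820%, in HERPUD1 and CHAC1, and TGACGTGG in 0.666%, in none of that list. TTCNNGAANNTTC stood in 0.440% of all promoters and in HSPA6 alone of 15 heat shock genes. The sterol letters TCACNCCAC stood in 0.875%, their stricter form in 0.0366%, and both in SREBF2 alone of 17 cholesterol genes. The cyclic AMP element TGACGTCA stood in 1.77% and in JUND, DUSP1, DUSP8 and PPP1R15A of 22 immediate early genes. A match describes letters in this window and is no evidence that a factor binds there.

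Most genes were near their starting level after 48 h, and counted by gene more lay below it than above it. Of the 13048 measured genes, 8855 (67.9%) were within 1.5-fold and 2736 (21.0%) between 1.5-fold and 2-fold. At least 2-fold higher at 48 h were 559 genes (4.28%), and at least 2-fold lower were 898 (6.88%). Among the 7724 genes with a signal of 100 or more on either array, 374 (4.84%) were higher and 536 (6.94%) lower. Counted over all measured probe sets in place of genes, the excess of lower ones was not seen. Of 18802 with the plain suffix _at, 997 were higher and 995 lower. The counts were 527 and 479 of 8042 with _s_at, 58 and 38 of 664 with _a_at, and 282 and 129 of 2752 with _x_at. A difference of 4-fold or more was seen for 34 genes upward and 81 downward. The median log2 ratio over measured genes was -0.09, with quartiles of -0.48 and 0.29.

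**Figure D1:**
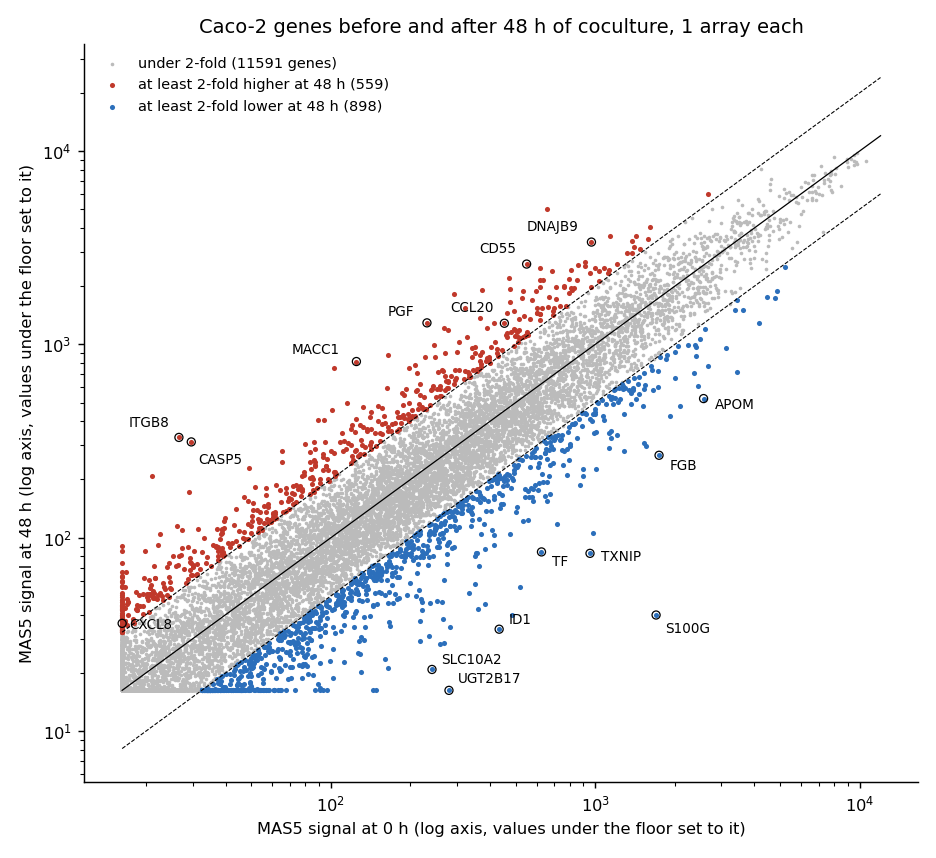
MAS5 signal of each of the 13048 measured genes at 0 h (x axis) and 48 h (y axis), both log axes, with 1 array each; the solid line marks equal signals and the dashed lines 2-fold. The 898 genes lower at 48 h reach farther from the line than the 559 higher genes, with S100G at 1699 against 39.8 the farthest.

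Of 1107 genes higher at 1, 3, 6 or 24 h, 480 (43.4%) were back at 48 h, 346 (31.3%) were still at least 2-fold higher and 270 were 1.5-fold to 2-fold off in the same or the other direction. Of 1631 genes lower in between, 493 (30.2%) were back, 638 (39.1%) still lower and 494 in between. The floor bears on the first of these counts: of the 480 genes, 140 were under it at 0 h or 48 h, 64 of them at both times, and for these the return is set by the floor. The other 340 were above it on both arrays. None of the 493 was under it on either array. Another 211 genes were past 2-fold upward, and 253 downward, at 48 h alone. The genes that were back had their largest difference most often at 6 h (214 of 480 upward, 223 of 493 downward), while those still changed had it mostly at 24 h among the earlier times (194 of 346 and 361 of 638). Of the 619 genes higher at 6 h, 45.6% were back at 48 h, against 24.3% of the 577 higher at 24 h. For lower genes the shares were 29.2% of 943 and 13.5% of 898. Every time was set against the same 0 h array, so these sets overlap and are not independent.

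**Figure D2:**
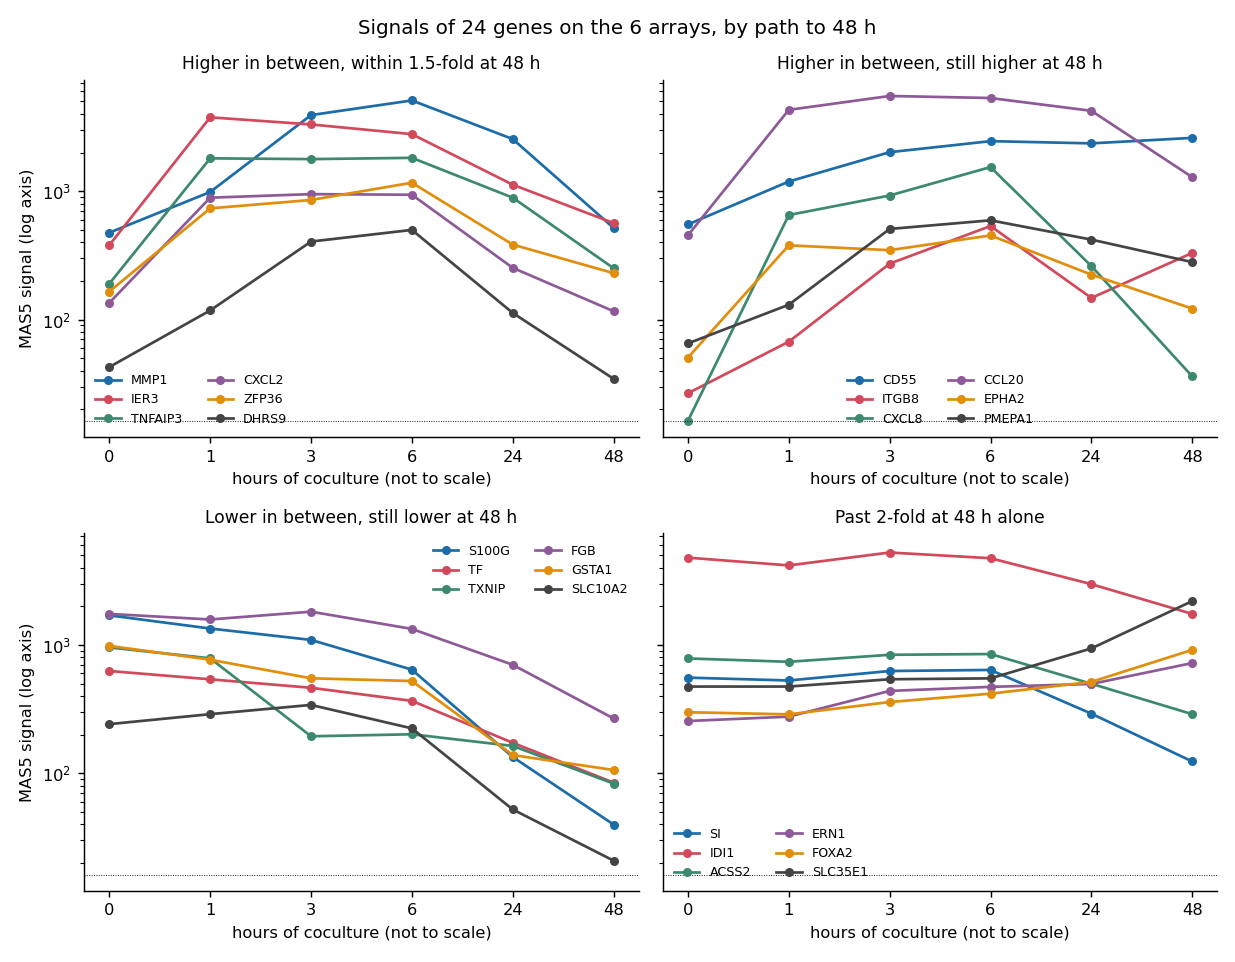
MAS5 signal (log axis) of 24 genes on the arrays at 0, 1, 3, 6, 24 and 48 h (evenly spaced, not to scale), 1 array per point, with the floor as a dotted line. MMP1 returned from 5096 at 6 h to 517, CD55 stayed high at 2602, S100G was at 39.8, and SI was past 2-fold at 48 h alone.

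The 0 h and 48 h arrays carried the same scaling, with a 2% trimmed mean of 93.8 on each of the 6 arrays. Medians ran from 15.3 to 16.7. The manufacturer's control for ACTB sets a 3′ probe set against a 5′ one and rises as RNA breaks down or is copied incompletely. It was 51.2 at 0 h and 37.0 at 48 h, against 18.0 to 27.9 on the other arrays. That of GAPDH was 4.69 and 4.23, within the range of 3.54 to 4.72 over the series. The rank correlation over all probe sets was 0.875 between 0 h and 48 h and 0.895 between 24 h and 48 h, and that of 0 h with 6 h, at 0.864, was the lowest of any pair. The 0 h array thus carried the highest ACTB ratio and served as the baseline, and the part of this in the results was not tested. Against the 1 h array in its place, 436 genes were higher and 706 lower at 48 h.

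Caco-2 identity was checked on markers. All 14 enterocyte markers were measured, none was higher, 3 were lower (SI, FABP1 and APOA4), and their summed signal was 22385 at 0 h and 18369 at 48 h. The epithelial genes CDH17 (4208 at 0 h and 4673 at 48 h) and EPCAM (4159 at 0 h and 5490.0 at 48 h) stayed within 1.5-fold. Of 19 macrophage or monocyte markers with a probe set, 8 were measured, none was higher and AIF1 was lower, with a summed signal of 919 at 0 h and 711 at 48 h. CD163, CYBB and CD53 lay under the floor on both arrays. LYZ, made by macrophages and by Paneth cells, read 247 at 0 h and 412 at 48 h, and CD14 read 59.8 at 0 h and 48.5 at 48 h. Of the remaining marker lists, goblet cells had 0 of 6 measured higher and 2 lower (TFF3 and FCGBP), stem cells 0 of 4 either way, Paneth cells 0 of 3 either way, and the only measured enteroendocrine marker, CHGB, read 44.2 at 0 h and 25.2 at 48 h.

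Chemokines, the secreted proteins that call in leukocytes, had the highest median of the 46 gene lists at 1, 3, 6 and 24 h, and at 48 h 7 lists lay above them. Their median log2 ratio to 0 h over 10 measured genes was 2.88, 3.10, 3.18, 1.63 and 0.43 at 1, 3, 6, 24 and 48 h. Of the 6 that were higher in between, 1 was back, 3 were still higher and none was lower. Over all measured genes 4.28% were higher and 6.88% lower at 48 h, which is the background for this and the following lists. Of the 14623 genes above the floor on at least 1 array, 1107 were higher in between and 1631 lower. Of the 1107, 43.4% were back and 31.3% still higher, and of the 1631, 30.2% were back and 39.1% still lower. CXCL2, a neutrophil attractant, read 135, 889.8, 948, 938, 253 and 116 at 0, 1, 3, 6, 24 and 48 h, so its last array lay just under its first. CXCL1, of the same subfamily, read 27.8, 1158, 667, 548, 179.6 and 42.5 at those times and at 48 h was 1.53-fold from 0 h. CXCL8 (interleukin 8) read 8.50, 652, 925, 1541, 261 and 36.05, and since 0 h was under the floor its 48 h level was at least 2.22-fold higher. CCL20, which attracts cells bearing CCR6, read 453, 4303, 5519.7, 5321, 4229 and 1286. It peaked at 12.2-fold at 3 h and was still 2.84-fold above 0 h. CXCL10 (10.8, 133, 237, 255, 113 and 34.4) was at least 2.12-fold higher, and CXCL3 (21.1, 256.2, 221, 259, 109 and 39.3) lay 1.86-fold above 0 h. Against the 1 h array, the 48 h median of the list was -1.85.

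The inhibitors and subunits of NF-kB followed the chemokines at smaller amplitude. Of 21 measured genes 13 were higher in between, 6 of them were back at 48 h and 3 genes of the list were higher, with a 48 h median of 0.22. The share back lay near the 43.4% of all genes higher in between. NFKBIA, which holds NF-kB in the cytoplasm, read 682, 3203, 3229.9, 3103, 1457 and 505. Its 48 h array was 1.35-fold below 0 h, and its other probe set gave -0.10. TNFAIP3 (A20), a ubiquitin-editing brake on the pathway, read 190.1, 1802, 1778, 1819, 889.9 and 251. Its brightest probe set put it within 1.5-fold at 48 h, but the other one gave a log2 ratio of 1.10, so the return of TNFAIP3 depends on the probe set. IER3, an NF-kB target that modulates cell death, read 379.8, 3763, 3312, 2783, 1123 and 564, ending 1.49-fold above 0 h, just inside the limit for back. ICAM1, the adhesion molecule for leukocyte integrins, read 109, 277, 387, 506, 225 and 126. Still past 2-fold were RELB (17.1 at 0 h and 46.5 at 48 h), a subunit of the non-canonical pathway, and TNIP2 (97.4 at 0 h and 200.1 at 48 h), a partner of TNFAIP3. TNFAIP2 (17.9 at 0 h and 36.1 at 48 h) was past 2-fold at 48 h alone, and its other probe set went the opposite way at -0.67.

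Immediate early genes, the transcription factors and phosphatases that respond first to a signal, were split. Of 28 measured, 17 were higher in between, 8 of these were back and 4 still higher, and 5 genes of the list were higher and 2 lower at 48 h (median 0.48). Here too the share back lay near the 43.4% of all genes higher in between. FOSB and EGR3, under the floor at both 0 h and 48 h, stand outside that 28. FOS, a partner in the AP-1 dimer, read 85.4, 140.2, 338, 502, 176 and 101. ZFP36, which destabilises cytokine mRNAs, read 165, 735, 854, 1164, 383 and 229.7. The orphan receptor NR4A1 read 39.5, 381, 146, 114, 108 and 55.4 and ended within 1.5-fold, although its other probe set gave -0.70. KLF4, a factor of differentiated intestinal epithelium, stayed above its start: it read 578, 1111, 1727, 2176, 1747 and 1695, and its other probe set gave a log2 ratio of 2.02 at 48 h. ATF3 (177 at 0 h and 448 at 48 h), DUSP5 (733 at 0 h and 1585 at 48 h) and DUSP6 (963 at 0 h and 1980.3 at 48 h) were also past 2-fold, each a little lower at 48 h than at 1 h. CCN1, a matrix-associated growth regulator, was past 2-fold at 48 h alone (116, 147, 149, 134, 218 and 311). KLF2 (72.1 at 0 h and 29.4 at 48 h) and PPP1R15A (428 at 0 h and 202 at 48 h), a phosphatase subunit of the stress response, were lower.

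**Figure D3:**
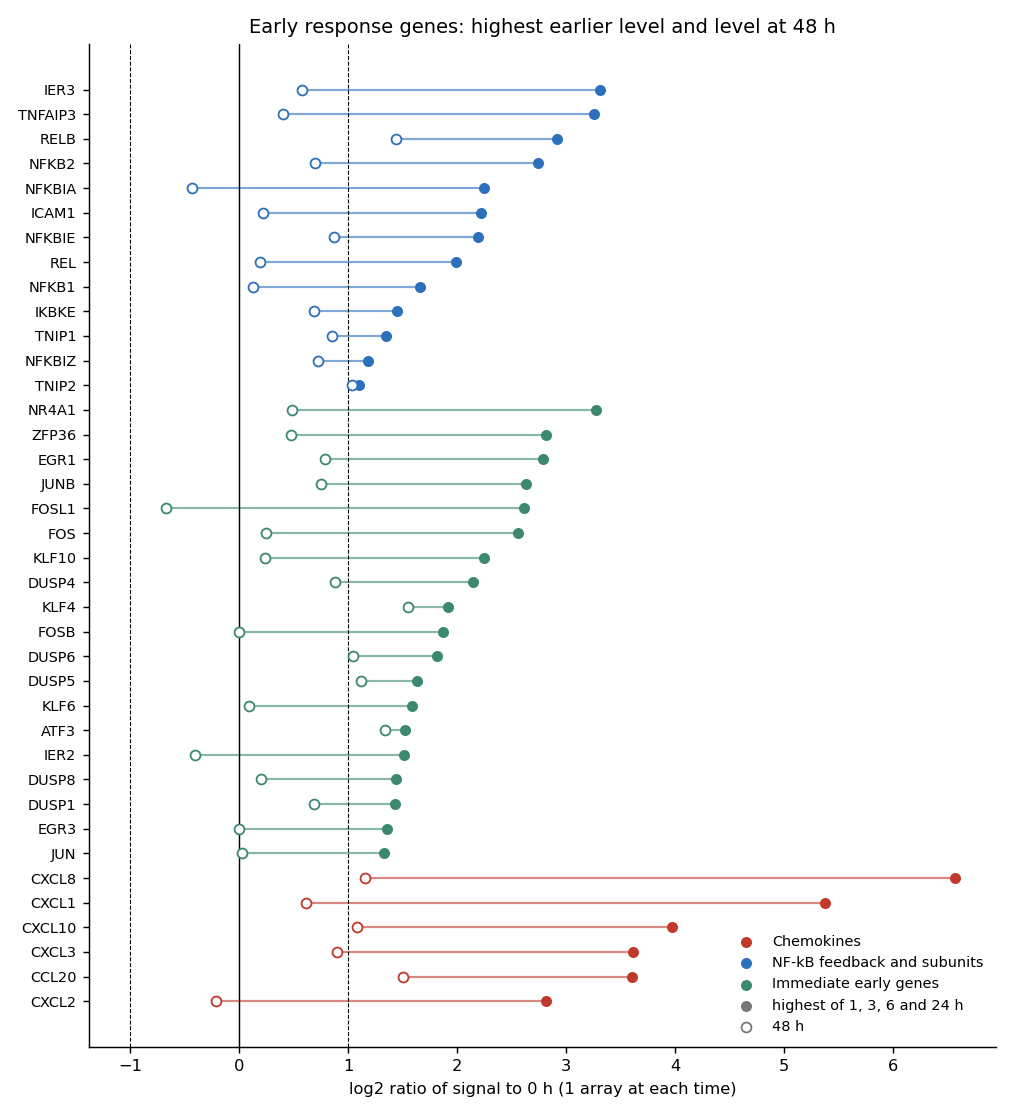
Log2 ratio of signal to 0 h for the 38 chemokine, NF-kB and immediate early genes that were higher in between; filled points show the highest of the 1, 3, 6 and 24 h arrays and open points the 48 h array, with 1 array at each time. At 48 h 29 of the 38 lay within 2-fold of 0 h (dashed lines), CCL20 and KLF4 among those outside. The 29 include genes under the floor at both 0 h and 48 h, whose place within 2-fold is set by the floor.

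Matrix and protease genes held both fates. MMP1, an interstitial collagenase, read 475, 985, 3917, 5096, 2547 and 517, 10.7-fold above 0 h at 6 h and within 1.5-fold at 48 h. PLAUR, the urokinase receptor, read 51.3, 219, 322, 409.9, 146 and 70.3 and TIMP2, a metalloproteinase inhibitor, 1029, 1597, 2312, 2545, 1955 and 1088, both within 1.5-fold at the end. The integrin and matrix list as a whole stayed above its start: 7 of 19 measured genes were higher and none lower, and the median, 1.04 at 24 h, was 0.51. ITGB8, the integrin beta chain that activates latent TGF-beta, had the largest upward ratio of the genes above the floor on both arrays. It read 26.6, 67.2, 272, 535, 147 and 330.1, 12.4-fold above 0 h at the end, but its other probe set gave a log2 ratio of only 0.56. The collagen and fibronectin receptors ITGA2 (369.7 at 0 h and 795 at 48 h), ITGA5 (90.97 at 0 h and 202 at 48 h) and ITGAV (820.1 at 0 h and 1914 at 48 h) and the hemidesmosome chain ITGB4 (75.2 at 0 h and 179 at 48 h) lay 2.15-fold, 2.22-fold, 2.33-fold and 2.38-fold higher. SERPINE2 (57.9 at 0 h and 149.9 at 48 h), a protease inhibitor, and the gelatinase MMP9 (21.6 at 0 h and 62.2 at 48 h) completed the list of higher genes.

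Feedback genes of receptor tyrosine kinases and cytokine receptors had the highest list median at 48 h, 0.66, with 6 of 19 measured genes higher and 1 lower. By medians over probe sets it was 0.59, and heat shock genes lay higher at 0.60. PHLDA1, an immediate target of ERK signalling, read 305, 826, 2038, 2314, 1599 and 1032, and its 5 other probe sets gave from 0.31 to 1.68. EPHA2, an ephrin receptor, read 50.5, 378, 347, 452, 224 and 122. SPRED1 (124 at 0 h and 282 at 48 h), a brake on RAS, and PIM3 (243 at 0 h and 607 at 48 h), a cytokine-induced kinase, were higher, as were EREG (60.4 at 0 h and 128 at 48 h), an EGF receptor ligand, and ERRFI1 (399 at 0 h and 799 at 48 h), an EGF receptor inhibitor. For SPRED1 the other probe set went the opposite way, at -1.14. LRIG1, a negative regulator of EGF receptors, was lower (425 at 0 h and 193 at 48 h), with its other probe set at 0.53. In the TGF-beta and BMP list, 3 of 21 genes were higher and 2 lower (median 0.23). PMEPA1, a TGF-beta target that dampens SMAD signalling, read 65.1, 130.4, 508, 593, 419 and 280.0, and its other probe sets gave 1.35 and 1.79. BMP2 read 689.6 at 0 h and 1487 at 48 h and GREM1, a BMP antagonist, 12.3 at 0 h and 50.4 at 48 h. GREM1 was under the floor at 0 h. ID1, a direct BMP target that blocks differentiation factors, was above its start at 1 h and far below it afterwards, reading 433, 1109.7, 128, 41.6, 40.3 and 33.6, and ID3 read 55.4 at 0 h and 21.1 at 48 h.

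Some death receptor and caspase genes were higher at 48 h, and so was CD55. Of 22 measured caspase and death receptor genes, 11 were higher in between, 5 of them still were, and 5 genes were higher and 1 lower at 48 h (median 0.30). CASP5, an inflammatory caspase that senses lipopolysaccharide, read 29.6, 41.7, 36.7, 35.3, 68.5 and 313, so most of its 10.6-fold difference came after 24 h. The TRAIL receptors TNFRSF10A (76.3 at 0 h and 179.7 at 48 h) and TNFRSF10B (832 at 0 h and 1963 at 48 h) both lay 2.36-fold higher, while the 2 other TNFRSF10A probe sets gave -0.50 and -0.14. Their ligand TNFSF10 (TRAIL) went the other way, reading 281, 249, 93.9, 70.4, 27.1 and 34.7, and its other probe sets gave -1.68 and -1.61. PMAIP1 (20.2 at 0 h and 51.00 at 48 h) and BAK1 (10.2 at 0 h and 33.5 at 48 h), which promote apoptosis at mitochondria, were higher. BAK1 was under the floor at 0 h. CD55, which protects cells from complement by splitting its convertases, read 550.0, 1189, 2013, 2454, 2358 and 2602. It was 4.73-fold higher at 48 h, its other probe sets gave 1.26 and 1.29, and its level changed little after 6 h.

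The unfolded protein and heat shock lists had their highest medians at 48 h. On the unfolded protein and integrated stress list 4 of 30 measured genes were higher and none lower, against 4.28% and 6.88% of all measured genes, and the median went from 0.14 at 24 h to 0.48 at 48 h. DNAJB9, a cofactor of the ER chaperone BiP, read 967, 1133, 1030.0, 1572, 2571 and 3382, and its other probe sets gave 2.43 and 2.70. ERN1, the ER stress sensor, read 255, 276, 438, 471, 496 and 722, with 0.74 and 1.02 in its other probe sets. DDIT3 (CHOP) read 196, 332, 218, 292, 312 and 438. ERO1B, whose promoter holds the ER stress element printed above, read 19.8, 36.1, 22.7, 35.2, 64.6 and 85.3, and its other probe set gave 2.27. These 4 genes were at their highest signal of the 6 arrays at 48 h. Of 16 measured heat shock genes, 3 were higher and 1 lower (median 0.47). BAG3 read 619, 764, 892, 915, 1252 and 1333 and DNAJB4 24.5, 21.1, 23.9, 30.8, 79.6 and 54.95. HSPA6 read 22.6, 42.4, 49.7, 116, 279.9 and 105, but its second probe set gave 0.00. HSPB1, a small heat shock protein, was lower (94.6 at 0 h and 32.6 at 48 h).

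Several lists of proteins that liver-like cells secrete into plasma lay below their start. Of 16 measured coagulation genes, 8 were lower, none was higher, and the median was -1.01, against 6.88% of all measured genes lower and a median of -0.09. The fibrinogen chains moved together: FGA read 266, 263, 241, 184, 44.9 and 38.03, FGB 1743, 1578, 1815, 1331, 699 and 267 and FGG 1527, 1103, 990.3, 810.2, 337 and 310.0. Their 48 h arrays lay 6.99-fold, 6.53-fold and 4.92-fold below 0 h, and on the log2 scale most of the difference appeared after 6 h. The 2 other FGA probe sets gave -2.65 and -0.11. The thrombin inhibitors SERPINC1 (antithrombin, 363 at 0 h and 71.4 at 48 h) and SERPIND1 (heparin cofactor, 414 at 0 h and 103 at 48 h), kininogen KNG1 (1519.5 at 0 h and 481 at 48 h), the factor XIII subunit F13B (62.9 at 0 h and 1.11 at 48 h) and protein S (PROS1, 1753 at 0 h and 857 at 48 h) were lower as well.

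Serum carriers gave 9 of 23 measured genes lower and 1 higher, with a median of -0.93. Transferrin (TF), the plasma iron carrier, read 626, 539, 463, 366, 173 and 84.4, with -2.83 and -0.16 in its other probe sets. ITIH2 (475 at 0 h and 104 at 48 h), A2M (128 at 0 h and 29.1 at 48 h), ORM1 (562 at 0 h and 163 at 48 h), SERPINA6 (754 at 0 h and 239 at 48 h) and ceruloplasmin (CP, 218 at 0 h and 79.1 at 48 h, other probe sets -0.47 to -0.12) were between 2.75-fold and 4.57-fold lower, and albumin (ALB) read 3427 at 0 h and 1702 at 48 h. SPP1 (osteopontin) was the member that was higher, at 16.8 at 0 h and 66.1 at 48 h. For apolipoproteins and lipoprotein assembly the count was 7 of 16 lower and none higher (median -0.86, and -0.37 at 24 h). APOM, a carrier of sphingosine phosphate on HDL, read 2569, 2229, 1931, 1232, 653 and 524, and its other probe set gave -2.41. MTTP, which loads lipid onto APOB, read 1125, 1258, 1077, 1116, 438 and 292, and APOA1 5216, 4411, 4662, 3324, 2824 and 2505. Among 16 complement genes 5 were lower and CD55 alone was higher (median -0.42), C2 at 141 at 0 h and 39.4 at 48 h and C1S at 247 at 0 h and 109.5 at 48 h. Of 14 measured iron handling genes TF alone was lower and none was higher (median -0.02).

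Cholesterol genes were lower late, and other lipid lists differed in when they were lowest. Cholesterol synthesis and uptake had 9 of 19 measured genes lower and none higher, and the median ran 0.09, 0.28, 0.35, -0.45 and -0.99 at 1, 3, 6, 24 and 48 h. HMGCS1, an early enzyme of the route, read 3372, 3770.1, 4984, 4451, 2469.7 and 1502. LSS, which closes the sterol rings, read 1077, 1082, 1092, 915, 459.7 and 408, and DHCR7, which makes cholesterol in the last step, 1541, 1485, 1408, 1411, 868 and 616. Of IDI1 (4783, 4163, 5246, 4736, 2973 and 1743) the 3 other probe sets gave from -1.37 to 0.82, so its direction depends on the probe set. FASN, the fatty acid synthase, read 901, 823, 506, 507, 292 and 209, and in its list 3 of 15 genes were lower and none higher (median -0.50). Fatty acid oxidation had 3 of 20 lower and none higher (median -0.39, and -0.63 at 6 h), among them ECI2 (184 at 0 h and 69.5 at 48 h). Fatty acid binding and lipid droplet genes had 3 of 15 lower and none higher (median -0.39). FABP1, the abundant fatty acid carrier of liver and gut, read 2086, 2275, 1797, 1185, 1035 and 478, with -1.67 in its other probe set.

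Ileal bile acid genes had 5 of 10 measured members lower and none higher, with a median of -0.95. SLC10A2, the apical bile acid transporter, read 241, 289, 340.5, 224, 52.2 and 20.8, above its start at 1 h and 3 h and 11.6-fold below it at the end. FABP6, which binds bile acids in the cell, read 145, 101, 107, 88.2, 45.2 and 14.3. It was at least 8.91-fold lower, and its other probe sets gave -0.63 and -0.12. NR0B2 (34.7 at 0 h and 16.1 at 48 h), a repressor induced by bile acids, and CYP27A1 (692 at 0 h and 287 at 48 h), which oxidises sterol side chains, were also lower.

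By brightest probe sets, conjugating enzymes, which tag drugs, steroids and bile acids for removal, had the lowest median of any list. It was -1.14, with 14 of 26 measured genes lower and none higher, and 12 of the 14 had been lower at an earlier time. Without _x_at sets the median was -0.86, and coagulation genes lay lower at -1.01. By medians over probe sets it was -0.90, again above coagulation genes at -1.01. The lowest rank thus depends on the probe sets. UGT2B17, a glucuronosyltransferase for steroids, read 279.6, 293, 306, 229.5, 33.1 and 14.2 and was at least 17.2-fold lower. Its near relatives UGT2B15 (264, 259, 259.5, 160.3, 79.1 and 46.4) and UGT2B28 (333, 305, 248, 212, 66.96 and 51.9) are read by probe sets that may cross-match within the family, so the 3 are not independent. GSTA1, a glutathione transferase, read 983, 766, 549, 523, 138 and 106, but its other probe set gave -0.36. The estrogen sulfotransferase SULT1E1 (93.3 at 0 h and 15.7 at 48 h), MGST1 (1066 at 0 h and 427 at 48 h) and GSTA4 (673 at 0 h and 238 at 48 h) were lower too. In the cytochrome P450 and FMO list 5 of 18 were lower and 2 higher (median -0.49). FMO1, a flavin monooxygenase, read 267, 261, 151, 87.00, 31.9 and 28.5, and CYP3A5, an intestinal drug-oxidising P450, went up and came back (228, 462, 697, 686, 306 and 204). CYP2B6 (13.2 at 0 h and 37.4 at 48 h) and CYP1A2 (18.9 at 0 h and 44.5 at 48 h) were the higher ones, both dim. Dehydrogenases had 1 of 19 lower (median -0.30), ADH4, which read 518, 504, 323, 217, 104 and 55.6, and none higher. DHRS9, a retinol dehydrogenase, rose to 499 at 6 h from 42.6 and ended at 34.5. ABC transporters had none of 13 past 2-fold (median -0.35).

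On the digestive surface several hydrolases were lower, and most structural genes lay near their start. Of 14 measured brush border enzymes 6 were lower and none higher (median -0.50). SI (sucrase-isomaltase) read 556, 528, 626, 638, 291 and 123 and LCT (lactase) 358, 362, 410.2, 377, 141 and 83.2. MEP1A, a membrane metalloprotease, read 2659, 2503, 2407, 1994, 1155 and 776, and XPNPEP2 577, 596, 509, 462, 173 and 162. These 4 were near their start until 6 h. Microvillus structural genes had 1 of 20 lower, the bundling protein ESPN (121 at 0 h and 58.7 at 48 h), and none higher (median -0.22). Tight junction genes had 1 of 20 higher, PARD6B (569 at 0 h and 1350.0 at 48 h), and none lower (median 0.03). Adherens junction and desmosome genes had 2 of 16 higher and none lower (median 0.48), CTNNB1 (512 at 0 h and 1095 at 48 h) and NECTIN3 (181 at 0 h and 363 at 48 h). Keratins had 1 of 8 higher, KRT7, and none lower (median 0.46).

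S100G, the calcium-binding protein calbindin D9k and a classic vitamin D target, had the largest difference of the genes above the floor on both arrays. Genes under the floor on 1 of them, such as F13B, have only a lower bound and cannot be ranked against it. It read 1699, 1341, 1093, 641, 134 and 39.8, each array lower than the preceding one, and ended 42.7-fold below 0 h. The rest of the calcium and vitamin D list did not go with it, since S100G was the only member past 2-fold of 10 measured (median -0.41). Nutrient and ion transporters had 2 of 29 higher and 5 lower (median 0.04). The sugar carriers SLC2A5 (1212, 1163, 861, 747, 345 and 339.5) and SLC2A2 (94.7 at 0 h and 32.6 at 48 h) and the vitamin C carrier SLC23A1 (257 at 0 h and 95.1 at 48 h) were lower, and the amino acid carrier SLC7A8 (29.1, 171, 218, 178, 111 and 173) was higher. SLC39A4, the intestinal zinc importer, read 1288, 1222, 931, 673, 572 and 279, and was the only 1 of 10 metallothionein and zinc genes past 2-fold (median -0.30). Mucins and trefoil factors had 3 of 14 lower and none higher (median -0.30), with TFF2 at 3636 at 0 h and 1503 at 48 h and TFF3 at 505 at 0 h and 143 at 48 h. Mucosal defence genes had 2 of 19 higher and 2 lower (median 0.05), LTB (4.18 at 0 h and 46.3 at 48 h) and PIGR (10.8 at 0 h and 33.7 at 48 h) on the one side, DEFB1 (182 at 0 h and 85.3 at 48 h) and DUOXA2 (45.6 at 0 h and 19.3 at 48 h) on the other. LTB and PIGR were under the floor at 0 h, so their folds are lower bounds against it.

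Mitochondrial ribosome genes were lower early and partly recovered. Of 34 measured, 13 were lower in between, 5 of them were back and 6 still lower at 48 h, and the median was -0.71 at 6 h and -0.30 at 48 h. Of all genes lower in between, 30.2% were back and 39.1% still lower. MRPL34 read 486, 251, 65.7, 35.3, 47.3 and 39.8, MRPL12 381, 275, 148, 83.6, 112 and 87.3 and MRPL11 673, 486, 237, 133, 177 and 168. The respiratory chain had 2 of 32 lower and none higher (median -0.23), NDUFS3 (657 at 0 h and 194 at 48 h) and ATP5MC1 (854 at 0 h and 328 at 48 h). Replication and mitosis genes, lower in between for 11 of 38, had 2 lower and 1 higher at 48 h (median -0.24, and -0.56 at 6 h). MCM5, a subunit of the replicative helicase, read 166, 70.4, 90.6, 33.1, 98.8 and 136 and was back, with its other probe set at 1.01. The cytosolic ribosome had none of 28 past 2-fold (median -0.06), and the proteasome 1 of 27 higher, PSMD3, and none lower (median -0.30).

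Other lists stood near the median of all genes. Glycolytic enzymes had 1 of 19 higher and 2 lower (median -0.11), hypoxia targets 2 of 21 higher and 1 lower (0.17), and p53 targets 1 of 16 higher and 1 lower (0.05). Antioxidant genes had 1 of 19 higher, GPX2, and 2 lower, CAT and SOD1 (-0.05). Interferon-stimulated genes had 1 of 21 higher and 3 lower (0.03), and antigen presentation genes none of 15 past 2-fold (0.19). Wnt and stem cell genes had 1 of 18 lower, SP5, and none higher (-0.01). Of 19 lineage factors 2 were higher and 2 lower (-0.01). FOXA2, a pioneer factor of gut and liver, read 299, 287, 359, 417, 515 and 914, though its other probe sets gave 0.28 and 0.51, and KLF5, a factor of proliferating crypt cells, read 954, 843, 1674, 1808, 1805 and 2328. NR1H3 (162 at 0 h and 67.3 at 48 h), a sterol-sensing receptor, and NR1I3 (64.3 at 0 h and 31.05 at 48 h), a xenobiotic receptor, were lower. CDX2, the intestinal master factor, read 89.2, 103, 25.4, 36.9, 53.5 and 75.03 and was back.

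**Figure D4:**
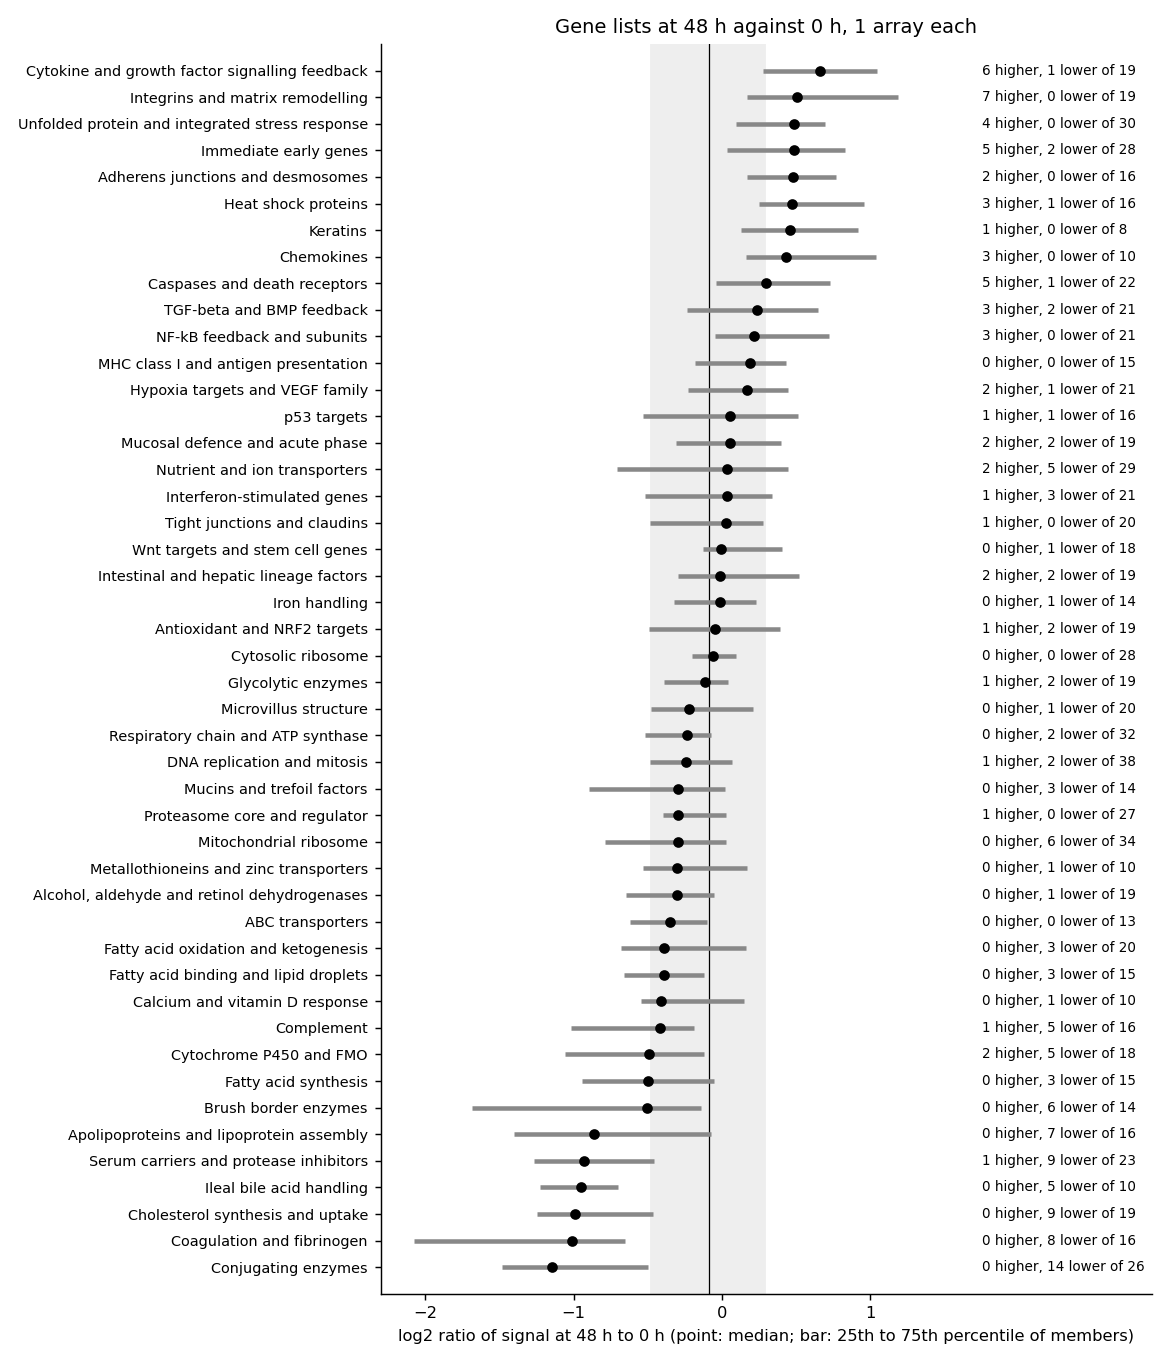
Median log2 ratio of 48 h to 0 h signal (points) and 25th to 75th percentile of members (bars) for 46 gene lists, 1 array each, with the counts past 2-fold at the right; the line and grey band show the median of -0.09 and the quartiles of all measured genes. Conjugating enzymes lie lowest at -1.14 and growth factor feedback highest at 0.66. Both ranks are by brightest probe sets, and neither holds with medians over probe sets.

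A few genes crossed their starting level. In all, 9 genes were at least 2-fold higher in between and at least 2-fold lower at 48 h, and 4 did the reverse. Besides ID1, TDO2, which breaks down tryptophan, read 127, 147, 278, 307, 71.3 and 25.3. PCK1, the rate-limiting enzyme of gluconeogenesis, read 633, 2168, 1371, 1192, 314 and 194, and AGPAT2, of phospholipid synthesis, 607, 1238, 1169, 819, 505 and 233. In the other direction CXCR4, a chemokine receptor, read 38.8, 13.8, 97.6, 235, 136 and 110.2, but its 2 other probe sets gave 0.19 and 0.24. L1CAM, an adhesion molecule, read 50.6, 40.3, 19.9, 43.2, 135 and 151, and IFIT2, an interferon-induced protein, 56.97, 30.9, 31.1, 26.6, 33.4 and 136.

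Among the largest differences outside the lists, MACC1, a regulator of MET signalling, read 125, 513, 947, 1008, 745 and 815, with -0.26 and 0.07 in its other probe sets. PITPNM2 read 21.1, 52.2, 67.4, 52.3, 104 and 208, with 0.47 in the other. TXNIP, an inhibitor of thioredoxin that responds to glucose, read 955, 786, 194, 201, 163 and 82.98, and its other probe sets gave -1.79 and -0.97. AIF1, known from macrophages, read 360.0, 229, 111, 153, 96.5 and 43.01, and its 3 probe sets ran from -3.07 to -2.84. The DNA glycosylase MPG read 259, 163, 101, 30.1, 41.6 and 28.4 and NAPA, a vesicle fusion factor, 383, 228, 153, 63.6, 72.97 and 45.4. AGXT2, an aminotransferase, read 148, 166, 111, 67.9, 11.8 and 5.93. C11orf96 (9.69, 277, 411, 341, 54.97 and 21.4) and TCIM (14.7, 126, 375, 90.9, 19.9 and 7.36) had the largest earlier rises in signal of genes counted as back, but C11orf96 was under the floor at 0 h and TCIM at both ends, so that call is set by the floor for both. FAM13A-AS1 (344, 38.04, 240.5, 350.4, 203 and 284) had the largest earlier fall of genes that were back. At 48 h alone, LOC101927166 read 103, 90.5, 102, 153, 156 and 753 and VWCE 174, 186, 128, 116, 91.3 and 51.1.

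Where a gene had a further measured probe set, that probe set shared the call only in part. For higher genes, 133 of 333 (39.9%) had a difference of at least 1.5-fold the same way in the next probe set and 25 one of that size the opposite way. For lower genes it was 171 of 342 and 27.

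Probe sets with the suffix _x_at, which the manufacturer gives to sets whose probes match other transcripts as well, were over-represented on the higher side. This was noticed after the results were seen. Of 823 measured genes read by such a set, 9.48% were higher and 4.62% lower, against 4.14% and 6.83% of 8481 genes read by a set with the plain suffix _at. They made up 9 of the 25 largest rises in signal at 100 or more and 2 of the 25 largest falls, and 24 and 5 of the largest 100 each. The 53 bright genes concerned had median log2 ratios of 0.26, 0.46, 0.44, 0.94 and 1.44 at 1, 3, 6, 24 and 48 h, and 49 of them were higher at 48 h than at 24 h, against 233 of 321 (72.6%) of other bright higher genes. In the 39 that had another measured probe set, the median was 1.41 in the _x_at set and 0.24 in the others. For the 218 such genes with other suffixes it was 1.26 against 0.42. Among the named genes they are NACA4P (655, 907, 863, 903, 2032 and 5041), ZNF160 (292, 439, 613, 467, 905 and 1812), ZNF721 (374, 535, 817, 579.6, 898 and 1916), NLN (321, 374, 442, 418, 794 and 1547), SLC35E1 (473, 473, 539.6, 548, 938 and 2193), PRR11 (618, 584, 687, 662, 1036 and 2495) and the growth factor PGF (231, 347, 349, 431, 562 and 1292), whose other probe set gave 0.64. For NLN the 4 other sets gave from -0.80 to 0.08, and for PRR11 the 2 others -0.26 and 1.09. What those sets measure was not tested, so their values may not be levels of the genes they are named for. PGF is nonetheless counted among the higher hypoxia targets. Also read by _x_at sets are CXCL2, CXCL8, NR4A1, IDI1, UGT2B15, UGT2B28, MGST1, CYP1A2 and AIF1. The same limit holds for their values and calls given above.

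**Figure D5:**
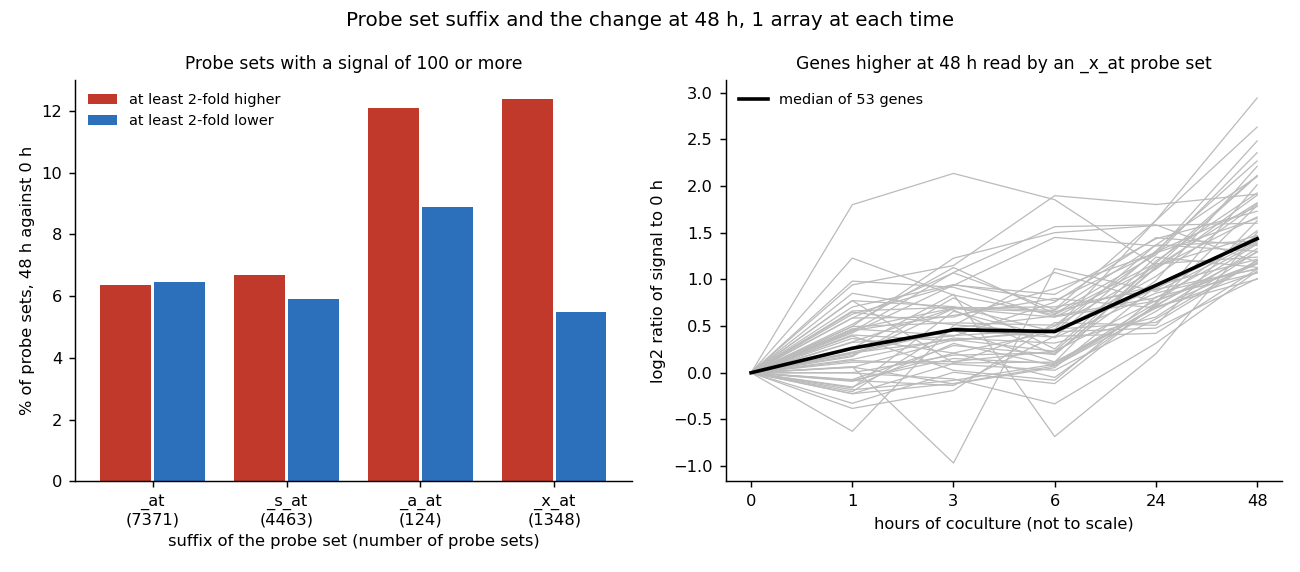
Left, percent of probe sets with a signal of 100 or more that were at least 2-fold higher or lower at 48 h than at 0 h, by suffix, with the number of probe sets in brackets; right, log2 ratio to 0 h of the 53 bright higher genes read by an _x_at set (grey) and their median (black), 1 array at each time, evenly spaced. Of the _x_at sets 12.4% were higher and 5.49% lower, and the median path climbs from 0.44 at 6 h to 1.44 at 48 h.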

How the data were processed

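Caco-2 RNA from 6 coculture times was measured on Affymetrix arrays, 1 per time, from 4 µg of total RNA per the labels' protocols. The deposited values are intensities: MAS5 signals per probe set on a linear scale, made by the authors with MAS5 per the submitters' processing notes. MAS5 corrects background with mismatch probes and scales each array to a common trimmed mean, which leaves dim signals noisy and says nothing of total RNA. Its version and the build behind the annotation are not given in the labels or notes used here. No array was rescaled, and no column was left unused. Arrays carry no counts, so their number limits the precision.

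Of 54675 probe sets, 41097 had 1 symbol, 1801 several and 11777 none, and only the first kind named genes, the 62 control probe sets left out. For 41043, the symbol was updated through RefSeq identifiers. Signals were floored at 16.2 (50th percentile of pooled values) and log2 was taken. Each of the 19775 genes was read by its brightest probe set (mean of log2 before flooring), and 14623 were above the floor on at least 1 array. Pandas 2.3.3 and numpy 2.4.6 were used. The code for the calls was run on simulated data with large changes planted in bright genes. Its noise was smaller than the spread between probe sets, so it says nothing of false calls in these arrays. Genes named are the 15 largest differences each way with a signal of 100 or more and support from the 24 h array or another probe set, the 8 largest of each path, the 5 largest crossings and members of the lists. The members, 46 gene lists, 6 marker lists and the promoter patterns were chosen with earlier results of these data known. Of 3 ways of picking the probe set that were tried, the reported one was taken after all 3 had been counted, because it matched an earlier description of these data, and the suffix comparison with its sizes of 25, 50 and 100 was set up after the data were seen. Alternatives were other floors, scalings, probe set choices, thresholds, the 1 h baseline and the 24 h end.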

Additional observations from a re-analysis of the deposited data

How the results depend on the processing

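The counts of higher (559) and lower (898) genes stayed within 1.5 times of the reported value under quantile normalization, a common median, the floor at the 65th percentile, the floor as a pseudocount, medians over probe sets, exclusion of _x_at and _s_at sets or of _x_at sets alone, the 1 h baseline and the 24 h end. The _x_at exclusion and 2 other ways of picking the brightest probe set were added after seeing the data. Picked by floored log2 mean the counts were 564 and 902, and by mean linear signal 572 and 906. All of these are counts by gene, and over all probe sets the lower side was not in excess. With the floor at the 30th percentile the counts were 1246 and 1644, and 1471 and 1134 genes were back after a higher or lower spell, 851 still higher and 1259 still lower. With the floor at the 65th percentile, 301 and 245 were back. At 3-fold, 105 were higher and 197 lower. At a signal of 100 or more, 536 were lower, 251 and 198 back, 222 still higher and 388 still lower. With a stricter limit for back, the counts were 285 and 244.

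List medians were taken as moved beyond 0.47, the robust SD of a single probe set. That tolerance was chosen after the data were seen, in place of the standard error of each median, by which 76 of 552 medians had moved. By the wider one 8 of 552 moved. Against 1 h, chemokines were at -1.85, NF-kB genes at -0.41 and immediate early genes at -0.47. With 24 h as the end, over the members above the floor at 0 h or 24 h and not the set measured at 0 h or 48 h, chemokines were at 2.36, NF-kB genes at 0.91, integrins and matrix genes at 1.04, apolipoproteins at -0.37 and cholesterol genes at -0.45. Of the 552 medians 34 changed sign. By the standard error, 18 of 46 lists moved without _x_at and _s_at sets, and 8 of 46 with medians over probe sets. These shifts went both ways. Without those sets fatty acid synthesis went from -0.50 to -0.11 and fatty acid oxidation from -0.39 to -0.11, but brush border enzymes from -0.50 to -0.87. With medians over probe sets cholesterol genes went from -0.99 to -0.56.

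Of 2010 alternative values for 232 single genes, 1628 stayed within 0.47, 359 moved and 23 changed direction. A change of direction was counted only for genes at least 2-fold from 0 h at 48 h. Genes called back, such as MMP1, IER3 and TNFAIP3, are therefore not among the 23, although at 48 h they lay above 0 h and below 1 h. Against 1 h the reversed log2 values were -0.18 for ATF3, -1.74 for CCL20, -1.96 for CXCL10, -4.18 for CXCL8, -0.041 for DUSP5, -0.11 for DUSP6, -1.64 for EPHA2, -0.41 for EREG, 0.13 for GSTA3, -0.58 for PIM3, -0.15 for PSMD3, -1.10 for RELB and -0.34 for SLC46A1. Without _x_at and _s_at sets they were -0.23 for ERO1A, 0.13 for IDI1, -0.80 for NLN, -0.26 for PRR11 and 0.90 for SULT1A1. By the median over probe sets they were -0.012 for HK2, 0.32 for SLC1A1 and -0.14 for TNFRSF10A. With 24 h as the end they were -0.77 for IFIT2 and 0.51 for ZMAT3. The cause was not tested. With 1 array per time no array could be left out. No paired analysis was possible because each group holds a single array. Signal near the floor limits what can be read of dim genes.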
